A study of Homo sapiens with 12 samples.

Results

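SUDHL-4 and WSU-DLCL2 are established lines grown from diffuse large B-cell lymphoma, both of the germinal-centre type, and their transcriptomes were compared gene by gene. The comparison took every library of these lines, 6 of the 12 in the series, with 3 from SUDHL-4 and 3 from WSU-DLCL2. Each line gave 1 library after 18 hours with avadomide (also called CC-122), 1 with lenalidomide and 1 with the solvent DMSO alone. The other 6 libraries came from U2932 and TMD8, lines of the activated B-cell type. The study's title concerns the partners of the transcription factors Aiolos and Ikaros and cereblon modulators given together with inhibitors of histone deacetylases. An earlier reading of these data had marked SUDHL-4 as a weak and WSU-DLCL2 as a strong responder to avadomide. No source used here gives the doses, and the labels name no genetic change made to either line. Each line descends from 1 tumour, so a difference between them is one between these cells and need not hold for other germinal-centre lymphomas.

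Germinal-centre B cells are the dividing B cells of the lymph node follicle, in which BCL6 holds a repressive programme while antibody genes are mutated. Avadomide and lenalidomide bind cereblon, a receptor of a ubiquitin ligase, and turn it against Ikaros and Aiolos, which repress interferon-stimulated genes in lymphoma cells among other targets. Interferon-stimulated genes are the antiviral programme that interferon receptors switch on, and NF-kB drives survival and cytokine genes in B cells.

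All values are the deposited log2 values, and a difference is SUDHL-4 minus WSU-DLCL2 on that scale, fitted over the 3 treatments with its standard error (SE). Where 3 values of a line are listed, they stand in the order avadomide, lenalidomide, DMSO. With 1 library for each line and treatment, the limma p-values rest on how unevenly line differences held over treatments. That spread was pooled over the 12 libraries of all 4 lines, not taken from this pair alone, and may be technical. A gene counted as called when its Benjamini-Hochberg adjusted p was under 0.05 and its difference was at least 1 in size. Between 13865 and 13970 genes reached a log2 value of 5 in the SUDHL-4 libraries, against 14022 to 14263 in the WSU-DLCL2 libraries. Libraries of the same line correlated at 0.991 to 0.998 and libraries of different lines at 0.947 to 0.952, over the genes tested. The sequencing depth behind these values is unknown.

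Both lines held the B-cell markers at similar levels. Of 6 B-cell markers none was called, though a list this short says little by its count. Over all genes 21.6% were called, 9.55% higher in SUDHL-4 and 12% lower, which stands beside each marker count here. The summed linear level of the 6, on a log2 scale, was 18.2 to 18.3 in SUDHL-4 and 18.3 to 18.4 in WSU-DLCL2. MS4A1, which encodes CD20, stood at 17.13, 17.03 and 16.87 in SUDHL-4, against 17.24, 17.16 and 17.01 in WSU-DLCL2. BCL6, the defining repressor of the germinal centre, stood at 15.33, 15.27 and 15.33 in SUDHL-4, against 15.18, 15.53 and 15.59 in WSU-DLCL2. The test did not separate the lines for either gene, with differences of -0.13 ± 0.10 (adjusted p = 0.313) and -0.13 ± 0.17 (adjusted p = 0.548). Of 9 markers of T and NK cells, 6 were below 1 in every library of either line, among them CD3D, CD3G and CD2. The remaining 3 were the T-cell receptor constant gene TRAC, its partner chain gene CD3E and the granule gene NKG7. TRAC was at 9.83, 9.75 and 9.59 in SUDHL-4, against 12.81, 12.99 and 13.04 in WSU-DLCL2, and CD3E at 5.85, 6.07 and 6.17 in SUDHL-4, against 3.44, 4.01 and 2.88 in WSU-DLCL2, so that these genes differed in opposite directions. In bulk RNA a few cells of another type and a low level in every cell cannot be told apart. Of 7 myeloid markers 5 were tested and none was called, and MPO and FCGR3A were below 1 throughout. In SUDHL-4 2 of them were called higher in the fit of 6 libraries, under either rescaling and without the SUDHL-4 or both avadomide libraries. The summed level of the 7 was 4.38 to 4.75 in SUDHL-4 and 3.86 to 4.29 in WSU-DLCL2, and its part in the differences below was not tested. Plasma-cell markers summed to 15.6 to 16.2 in SUDHL-4 and 14.4 to 14.9 in WSU-DLCL2, with JCHAIN called among 5. Stromal, endothelial and epithelial markers summed to 11.8 to 12 in SUDHL-4 and 10.4 to 10.6 in WSU-DLCL2, with DCN and PECAM1 called higher of 6 tested, and COL1A2, VWF and KRT18 below 1 in all libraries of both lines. DCN, a matrix proteoglycan, was at 11.51, 11.83 and 11.70 in SUDHL-4, against 10.26, 10.51 and 10.49 in WSU-DLCL2. The part of these markers in other results was not tested.

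Over the whole transcriptome, 4605 of 21338 genes tested were called (21.6%), 2038 higher in SUDHL-4 (9.55%) and 2567 lower (12%). The median difference over all genes tested was -0.00303. Differences of at least 4 were found in 247 genes higher and 362 lower in SUDHL-4. The line difference had the same sign under all 3 treatments in 4593 of the called genes. The 3 values of one line lay wholly above those of the other in 4508 of them, beside 61.3% of all genes tested. Scaling mattered little for the total and more for the split. Centring each library on its median raised all differences by about 0.175, after which 53.5% of the called genes were higher in SUDHL-4, against 44.3% without it.

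**Figure D1:**
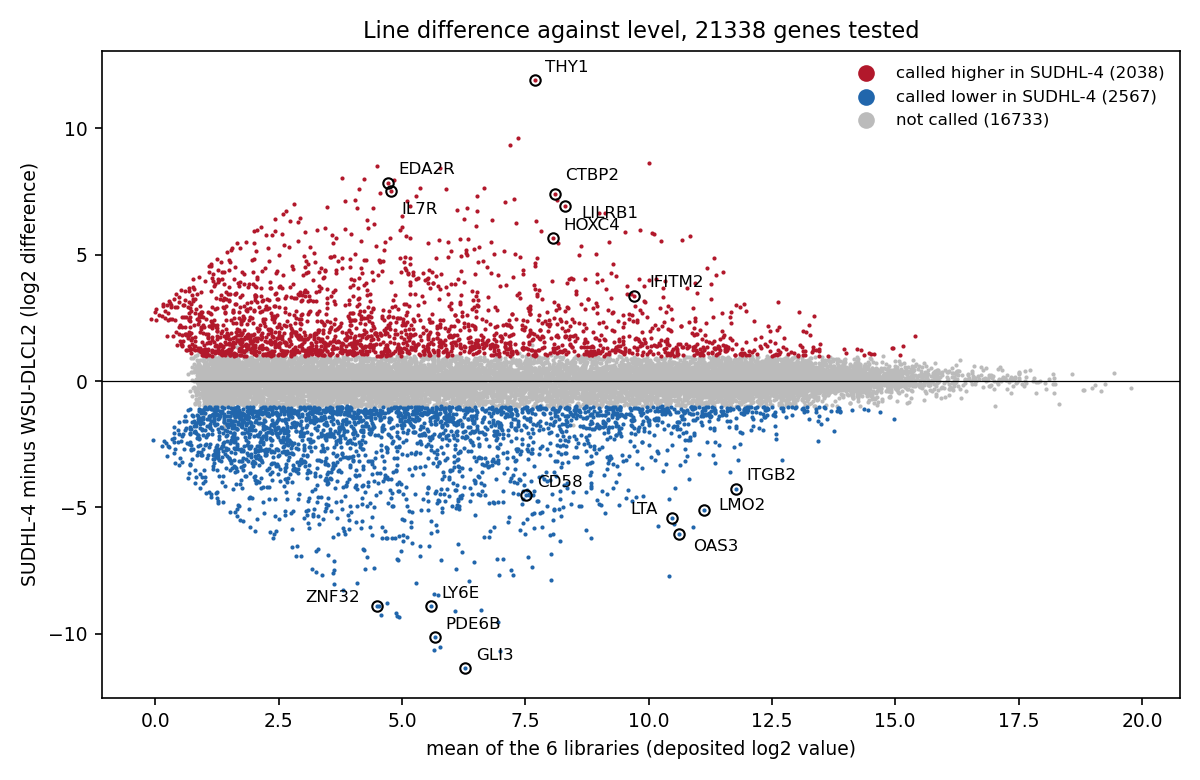
Difference between the lines (SUDHL-4 minus WSU-DLCL2, log2, vertical axis) against the mean log2 value of the 6 libraries (horizontal axis) for the 21338 genes tested, 1 point a gene. Called genes are coloured, 2038 higher in SUDHL-4 in red and 2567 lower in blue, and some named genes are ringed. Differences beyond 8 in size are seen in both directions and only at means up to about 10.

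The largest differences were mostly genes at high level in one line and near the floor in the other. The 15 largest in each direction were taken, without clone-named transcripts and antigen-receptor segments. Those higher in SUDHL-4 mix surface proteins, cytoskeletal regulators and a hormone. THY1, a surface glycoprotein also known as CD90 (chromosome 11, 119417378 to 119424985), was at 13.97, 13.61 and 13.36 in SUDHL-4, against 2.33, 1.70 and 1.18 in WSU-DLCL2, a difference of 11.91 ± 0.20 (adjusted p = 6.12e-11). Its levels in U2932 and TMD8 averaged 1.38 and 1.33, so SUDHL-4 was the only line of the 4 with the gene above 3. ARHGEF28, a guanine nucleotide exchange factor, differed by 9.36 and ADD2, a subunit of the membrane-skeleton protein adducin, by 8.61. ROBO2, a guidance receptor, differed by 8.45. PRL, the hormone prolactin, was at 7.99, 7.82 and 7.62 in SUDHL-4, against -0.21, -0.24 and -0.24 in WSU-DLCL2. EDA2R, a receptor of the TNF receptor family and a p53 target, was at 8.55, 8.53 and 8.88 in SUDHL-4, against 0.82, 0.79 and 0.79 in WSU-DLCL2. All of these had their 3 SUDHL-4 values far above the WSU-DLCL2 values. IL7R, the interleukin 7 receptor of early lymphocytes, was at 8.81, 8.51 and 8.33 in SUDHL-4, against 1.03, 1.01 and 1.0 in WSU-DLCL2. It was low in U2932 and TMD8 as well, at averages of 3.03 and 3.20.

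CTBP2, which encodes a corepressor recruited by zinc finger repressors (chromosome 10, 124984317 to 125161170), was also among the 15 largest. It was at 11.82, 11.80 and 11.76 in SUDHL-4, against 4.78, 4.09 and 4.31 in WSU-DLCL2, a difference of 7.40 ± 0.16 (adjusted p = 2.76e-10), and averaged 3.17 in U2932 and 2.93 in TMD8. Its relative CTBP1 differed by 0.12. Among the 15 largest, ANKRD18A, RGPD2 and VCX belong to families with near-identical copies, so their values are uncertain. The others were CLVS1, MTUS2, PID1 and CLIP4, with differences between 7.34 and 7.65.

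The genes of largest difference on the WSU-DLCL2 side include developmental and germ-line genes. GLI3, a zinc finger effector of Hedgehog signalling (chromosome 7, 41960950 to 42237870), was at 0.59, 0.61 and 0.59 in SUDHL-4, against 12.22, 11.96 and 11.73 in WSU-DLCL2, a difference of -11.37 ± 0.15 (adjusted p = 2.18e-11). Its averages of 0.74 in U2932 and 0.59 in TMD8 left WSU-DLCL2 as the only line above 1. TDRD1, a Tudor-domain protein of the germ-line piRNA pathway, was at 1.68, 1.56 and 1.68 in SUDHL-4, against 12.48, 12.18 and 12.31 in WSU-DLCL2. SVIP, a small inhibitor of endoplasmic reticulum-associated degradation, differed by -10.63, and PDE6B, the rod phosphodiesterase subunit, by -10.12. PCK1, the gluconeogenic enzyme phosphoenolpyruvate carboxykinase, differed by -8.44. LY6E, an interferon-responsive surface protein, was at 1.13, 1.15 and 1.13 in SUDHL-4, against 11.28, 9.27 and 9.58 in WSU-DLCL2. TRDC, the constant gene of the T-cell receptor delta chain, was at 1.72, 1.25 and 1.64 in SUDHL-4, against 10.05, 10.89 and 10.94 in WSU-DLCL2. All 15 were at 2.4 or less in every SUDHL-4 library and above 7 in every WSU-DLCL2 library. The remaining 8 were ARHGEF26, PHF21B, ABCA12, ZNF32, MYADM, AK5, ZNF239 and LINC00470. Of these, ABCA12 was at 1.74, 2.13 and 2.34 in SUDHL-4, against 9.48, 11.72 and 12.19 in WSU-DLCL2.

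**Figure D2:**
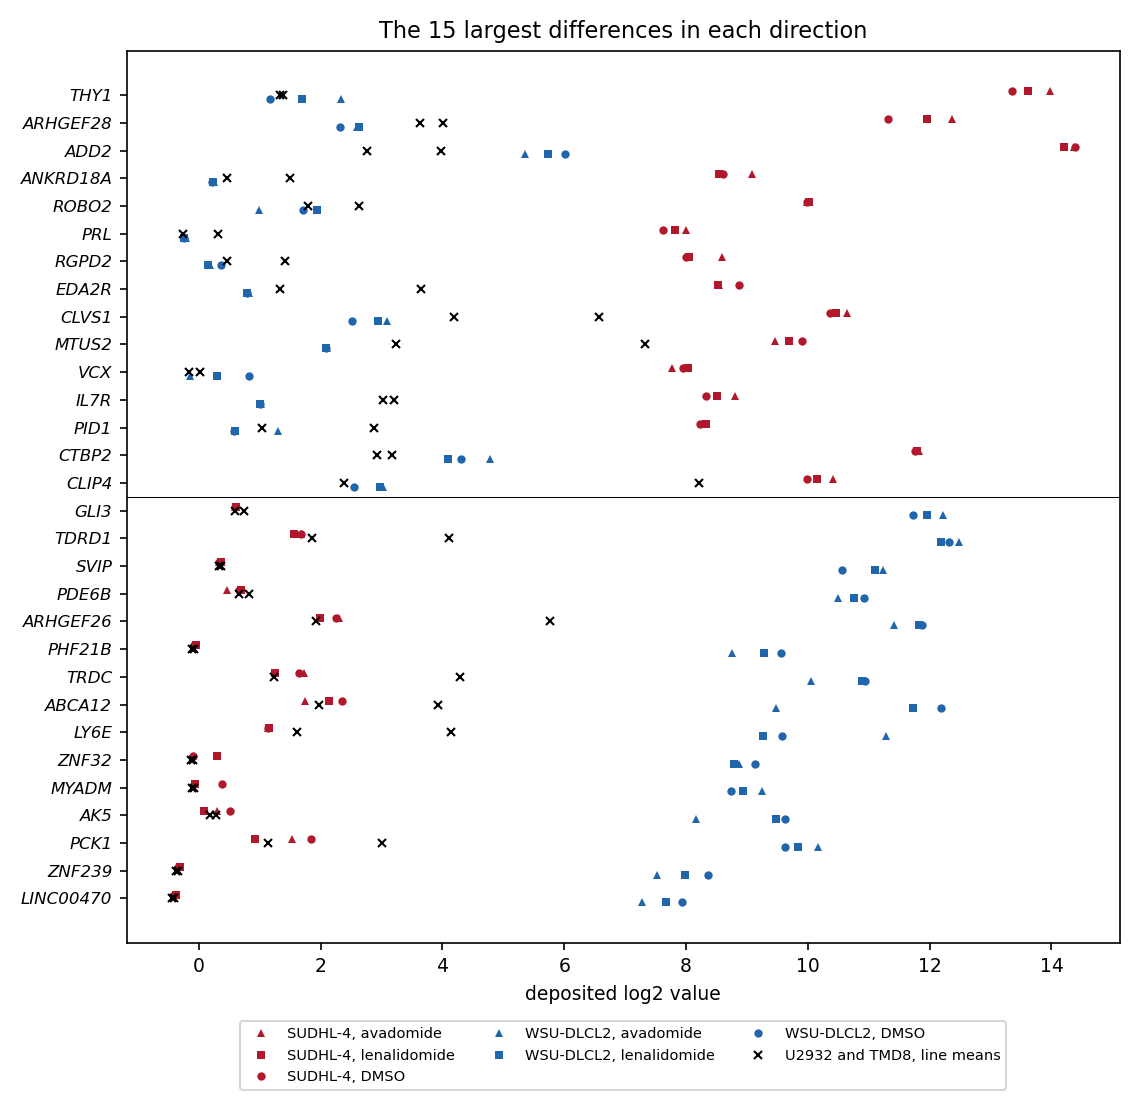
Log2 values of the 15 genes with the largest differences in each direction, SUDHL-4 in red above WSU-DLCL2 in blue for each gene, with 1 symbol for each treatment and crosses for the means of U2932 and TMD8. The 3 symbols of a line lie far from those of the other line and mostly close together, with ABCA12 and LY6E the most spread, in WSU-DLCL2. For most genes both crosses lie with the lower line.

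A strict definition of on and off, at least 5 in all 3 libraries of one line and at most 1 in all 3 of the other, held for 83 genes. Of these, 33 were on in SUDHL-4, with 19 protein-coding genes among them, and 50 were on in WSU-DLCL2, with 28 protein-coding. Leaving out clone-named transcripts and antigen-receptor segments here too, the 10 with the highest mean where on are all named above: GLI3, SVIP, PDE6B, PHF21B, AK5, MYADM and ZNF32 were on in WSU-DLCL2, and ANKRD18A, EDA2R and RGPD2 in SUDHL-4. The count depends on the thresholds, with 13 genes at 6 and 0 and 299 at 4 and 2.

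Position against the other lines showed how far each line was the unusual one. SUDHL-4 stood at least 1 away from all 9 other libraries in 1068 of the 21338 genes tested, 366 above and 702 below. All of these were called, and they made up 23.2% of the called genes. WSU-DLCL2 stood apart in that way in 663 genes, all called (14.4% of the called genes), 345 above and 318 below. Library medians over the tested genes were 7.644 to 7.688 in SUDHL-4 and 7.797 to 7.908 in WSU-DLCL2. In U2932 and TMD8 they were 8.125 to 8.293. The part of these medians in the counts above and below was not tested.

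Among 20 tested genes of the germinal centre, 3 were higher and 1 was lower in SUDHL-4, beside 9.55% and 12% over all genes. The list median was 0.304, beside -0.00303 over all genes. LMO2, a transcription cofactor used as a marker of germinal-centre lymphoma (chromosome 11, 33858576 to 33892289), was at 8.72, 8.51 and 8.47 in SUDHL-4, against 13.85, 13.58 and 13.56 in WSU-DLCL2. That is a difference of -5.09 ± 0.069 (adjusted p = 2.18e-11), and SUDHL-4 lay below U2932 and TMD8 as well, which averaged 11.64 and 12.81. BACH2, a repressor that delays plasma-cell fate, was higher by 1.67 ± 0.10 (adjusted p = 4.89e-07) and SUGCT by 3.67 ± 0.24 (adjusted p = 7.39e-07). SERPINA9, MYBL1 and MME, other markers of the germinal centre, had differences of 0.48, 0.46 and 0.40 and were not called.

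Genes of the activated type were split, with 6 of 18 higher and 8 lower in SUDHL-4, beside 9.55% and 12% over all genes. Without both avadomide libraries, or without the WSU-DLCL2 one, 7 were higher and 6 lower. IRF4, the factor of plasma-cell commitment, was at 8.12, 8.08 and 8.11 in SUDHL-4, against 11.17, 10.17 and 9.66 in WSU-DLCL2. Its averages were 14.39 in U2932 and 16.01 in TMD8. Both germinal-centre lines were thus below the activated lines, and SUDHL-4 was below WSU-DLCL2 with a difference of -2.23 ± 0.39 (adjusted p = 0.000645). CCDC50, LIMD1 and SH3BP5 were lower in SUDHL-4 as well, at -3.29, -2.61 and -2.05. FOXP1, a B-cell repressor, was higher by 1.81 ± 0.080 (adjusted p = 3.49e-08), ENTPD1, the ectonucleotidase CD39, by 2.03 ± 0.14 (adjusted p = 1e-06) and the kinase gene PIM1 by 1.31 ± 0.16 (adjusted p = 5e-05). Of 19 B-cell transcription factors only ETS1, at 1.28, and ID2, at -1.19, were called, beside 21.6% over all genes.

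B-cell receptor signalling genes were called in 11 of 36 cases, 8 higher and 3 lower in SUDHL-4, beside 21.6% called over all genes, 9.55% higher and 12% lower. The inhibitory receptor gene LILRB1 (chromosome 19, 54617158 to 54637528) was at 11.66, 11.72 and 11.94 in SUDHL-4, against 4.93, 4.76 and 4.80 in WSU-DLCL2, a difference of 6.95 ± 0.13 (adjusted p = 1.09e-10), though it has close paralogues. The catalytic PI3-kinase subunit PIK3CD was lower at -1.10. Among Src-family kinases FYN was higher by 1.60 ± 0.064 (adjusted p = 1.94e-08), while FGR was lower at -2.42 ± 0.31 (adjusted p = 7.92e-05). The kinase SYK was higher by 1.11. PTPN6, the inhibitory phosphatase SHP-1, was at 9.93, 9.75 and 9.82 in SUDHL-4, against 12.65, 12.73 and 12.90 in WSU-DLCL2. Of the receptor's own signalling chains, CD79B was not called, with a difference of 0.18. The call of PIK3CD was lost without the WSU-DLCL2 avadomide library or without both avadomide libraries.

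Of 19 surface proteins targeted by antibodies 3 were higher and 2 lower in SUDHL-4, and over all genes 9.55% were higher and 12% lower. CD38, a target in myeloma, was at 14.23, 14.13 and 14.16 in SUDHL-4, against 11.93, 12.35 and 12.40 in WSU-DLCL2, and CD24 was higher by 3.26 ± 0.11 (adjusted p = 5.58e-09). CD70, the ligand of CD27, was at 10.66, 10.41 and 10.23 in SUDHL-4, against 13.34, 12.94 and 12.79 in WSU-DLCL2. Of 14 antibody constant-region genes tested with the J chain, 4 were higher and 2 lower. The kappa constant gene IGKC was at 15.50, 15.69 and 15.56 in SUDHL-4, against 14.28, 14.29 and 14.26 in WSU-DLCL2, and the lambda constant gene IGLC2 at 8.61, 8.72 and 8.66 in SUDHL-4, against 11.11, 11.04 and 11.03 in WSU-DLCL2. Lambda constant genes are near-identical copies, so the values of IGLC2 and IGLC3 are uncertain.

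Genes of the cereblon ligase and its substrates were the drug's side of the comparison. Of 20 tested, 1 was called, beside 21.6% over all genes. None was higher, and IKZF4 was lower at -1.13, a call that was lost under quantile normalization and median centring. CRBN itself (chromosome 3, 3144628 to 3179727) was at 10.72, 10.71 and 10.51 in SUDHL-4, against 11.41, 11.40 and 11.39 in WSU-DLCL2. Its difference of -0.75 ± 0.063 (adjusted p = 4.12e-06) passed the p threshold but not the minimum size. IKZF1, which encodes Ikaros (chromosome 7, 50304068 to 50405101), was at 15.58, 15.23 and 15.19 in SUDHL-4, against 15.89, 15.35 and 15.05 in WSU-DLCL2, with a difference of -0.098 ± 0.099 (adjusted p = 0.418). IKZF3, which encodes Aiolos (chromosome 17, 39757715 to 39864188), was at 14.51, 14.14 and 14.07 in SUDHL-4, against 15.34, 15.14 and 14.70 in WSU-DLCL2. Its difference was -0.82 ± 0.087 (adjusted p = 2.14e-05), again under the minimum size, with each SUDHL-4 value below the WSU-DLCL2 value of the same treatment. Protein levels were not measured in these libraries.

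Interferon-induced genes were often lower in SUDHL-4. Of 45 tested, 24 were lower in SUDHL-4 and 4 were higher, with a median of -1.77, beside 12% lower and a median of -0.00303 over all genes. The list median was -3.15 under avadomide, -1.13 under lenalidomide and -0.545 under DMSO. OAS3, an antiviral oligoadenylate synthetase (chromosome 12, 112938352 to 112973249), was at 7.77, 7.43 and 7.53 in SUDHL-4, against 15.01, 13.08 and 12.83 in WSU-DLCL2, a difference of -6.07 ± 0.57 (adjusted p = 9.16e-06). The averages of U2932 and TMD8 were 12.45 and 12.51, so SUDHL-4 was the low line. PLSCR1, an interferon-induced scramblase, was at 7.11, 6.36 and 6.33 in SUDHL-4, against 12.39, 10.88 and 10.69 in WSU-DLCL2, and TDRD7, an antiviral Tudor-domain protein, at 5.46, 5.31 and 5.44 in SUDHL-4, against 10.73, 9.80 and 9.87 in WSU-DLCL2. UBE2L6, the conjugating enzyme of ISG15, was at 7.61, 7.66 and 7.65 in SUDHL-4, against 11.75, 10.38 and 10.65 in WSU-DLCL2. In these genes the lines lay apart in the DMSO libraries already, and no SUDHL-4 value came near a WSU-DLCL2 value.

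A further pattern was seen for genes that were alike without drug. IFIT1, an antiviral RNA-binding protein, was at 6.68, 5.10 and 3.86 in SUDHL-4, against 11.74, 6.71 and 4.40 in WSU-DLCL2. IFI44L was at 5.21, 4.02 and 3.48 in SUDHL-4, against 10.65, 6.35 and 3.83 in WSU-DLCL2, and MX1, an antiviral GTPase, at 4.91, 4.24 and 4.23 in SUDHL-4, against 10.84, 6.93 and 5.16 in WSU-DLCL2. The DMSO values of these genes lay within 1 of each other, and the avadomide values lay 5 or more apart. Their calls rest in part on the avadomide libraries: without both of these, the differences were -1.08 for IFIT1, -1.34 for IFI44L and -1.81 for MX1, all still called. IFI44L was no longer called without both lenalidomide libraries. Without the avadomide libraries 20 of the 45 genes were lower and 5 higher. OAS1, IFIT3, RTP4 and CXCL10 were the lower genes that lost their calls. Without the treatment term in the fit, 10 were lower and 3 higher, since the response to avadomide then counts as spread. When limma tested against a difference of 1, 8 were lower and 3 higher.

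Split by the DMSO libraries, the 45 genes fell into groups, with 12 lower by at least 1 in SUDHL-4, 26 within 1 and 7 higher by at least 1, beside 11.7% lower and 11% higher of all genes. The 6 genes lower by 2 or more were OAS3, TDRD7, PLSCR1, UBE2L6, PARP12 and HERC6. Their median change under avadomide was 0.203 in SUDHL-4 and 1.94 in WSU-DLCL2. In the 26 genes within 1, the median change was 0.637 in SUDHL-4 and 4.18 in WSU-DLCL2. The 7 genes higher in SUDHL-4 under DMSO had median changes of 0.268 in SUDHL-4 and 2.12 in WSU-DLCL2. IFITM2, a membrane protein that blocks viral entry, was at 11.37, 11.47 and 11.38 in SUDHL-4, against 8.38, 7.96 and 7.73 in WSU-DLCL2. ISG20, an exonuclease, was at 12.47, 12.29 and 12.19 in SUDHL-4, against 11.33, 9.45 and 9.23 in WSU-DLCL2. SAMD9 and PARP9, the other called genes of this group, differed by 2.60 and 1.14, and PARP9 was not called without the SUDHL-4 DMSO library, the WSU-DLCL2 lenalidomide library or both libraries of either treatment. After avadomide 37 of the 45 genes were lower by at least 1 in SUDHL-4, against 13.8% of all genes, and 3 were higher, against 9.8%. These are single libraries and were not tested, and the DMSO libraries enter both the split and the changes.

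Promoter sequence is shown for interferon-induced genes of both kinds, so that it can be read beside the values. The RefSeq windows (GRCh38.p14) run 250 bases upstream of each gene's RefSeq start, 5′ to 3′ on the gene's strand, in lower case, and no motif was searched. That start can differ from the GENCODE one, and part of the OAS3 window lies inside the gene position given above. OAS3 (chr12:112938224-112938473, plus strand) and PARP12 (chr7:140062952-140063201, minus strand) were lower in SUDHL-4 without drug. IFIT1 (chr10:89392373-89392622, plus strand) and IFI44L (chr1:78620198-78620447, plus strand) were alike without drug.
OAS3: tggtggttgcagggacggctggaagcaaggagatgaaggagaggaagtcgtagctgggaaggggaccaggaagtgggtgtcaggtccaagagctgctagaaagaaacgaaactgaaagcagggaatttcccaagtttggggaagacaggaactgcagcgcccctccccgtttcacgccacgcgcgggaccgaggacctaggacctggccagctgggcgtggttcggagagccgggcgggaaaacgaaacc
PARP12: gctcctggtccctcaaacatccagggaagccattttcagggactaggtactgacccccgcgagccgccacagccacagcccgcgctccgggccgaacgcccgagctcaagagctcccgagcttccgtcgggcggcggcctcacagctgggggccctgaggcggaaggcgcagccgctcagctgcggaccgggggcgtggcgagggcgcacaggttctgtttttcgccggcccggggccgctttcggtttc
IFIT1: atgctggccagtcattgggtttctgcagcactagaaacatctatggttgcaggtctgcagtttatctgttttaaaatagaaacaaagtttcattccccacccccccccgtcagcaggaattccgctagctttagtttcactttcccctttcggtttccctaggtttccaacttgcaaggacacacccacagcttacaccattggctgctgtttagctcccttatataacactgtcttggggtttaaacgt
IFI44L: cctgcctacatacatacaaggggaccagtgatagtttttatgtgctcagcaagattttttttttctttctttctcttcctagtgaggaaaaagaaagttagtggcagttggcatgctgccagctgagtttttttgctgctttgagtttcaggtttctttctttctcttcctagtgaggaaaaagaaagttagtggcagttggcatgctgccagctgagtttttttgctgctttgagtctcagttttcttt
With 50 bases after the start added, the window held 20 CpG dinucleotides for OAS3, 35 for PARP12, 4 for IFIT1 and 0 for IFI44L. Those counts are of the windows shown, while the medians took the window with the most CpG where a gene had several. The median number was 19.5 in the 12 genes lower under DMSO and 4.5 in the 20 with a window among those within 1. It was 27.0 over the tested genes with a window. These counts describe the letters only.

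Receptors and signal carriers of interferon were mostly not called. Of 25 tested, 1 was higher and 3 were lower, beside 9.55% and 12% over all genes. None was lower without either or both avadomide libraries, or without the treatment term. The receptor genes IFNAR1 and IFNAR2 and the kinase gene JAK2 were not called, with differences of 0.21, 0.051 and 0.36. IRF7, an inducible amplifier, was at 7.97, 8.01 and 8.03 in SUDHL-4, against 11.27, 8.73 and 8.39 in WSU-DLCL2. The lines lay within 1 of each other under DMSO, and the gene was not called without both avadomide libraries, at -0.54, or without either of them. Among 26 sensors of nucleic acids 1 was higher and 5 lower, with 3 lower without both avadomide libraries or the SUDHL-4 one. MB21D1, which encodes the DNA sensor cGAS, was at 6.31, 6.31 and 5.93 in SUDHL-4, against 9.22, 8.88 and 8.72 in WSU-DLCL2, a difference of -2.76 ± 0.085 (adjusted p = 3.02e-09). IFIH1, the RNA sensor MDA5, was lower at -2.89 ± 0.29 (adjusted p = 1.52e-05). TLR7, an endosomal RNA receptor, was at 8.36, 7.74 and 7.67 in SUDHL-4, against 6.42, 4.25 and 4.32 in WSU-DLCL2. The cytosolic RNA sensors DDX58 and DHX58, also lower, were not called without the avadomide libraries, at -0.30 and -0.88.

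**Figure D3:**
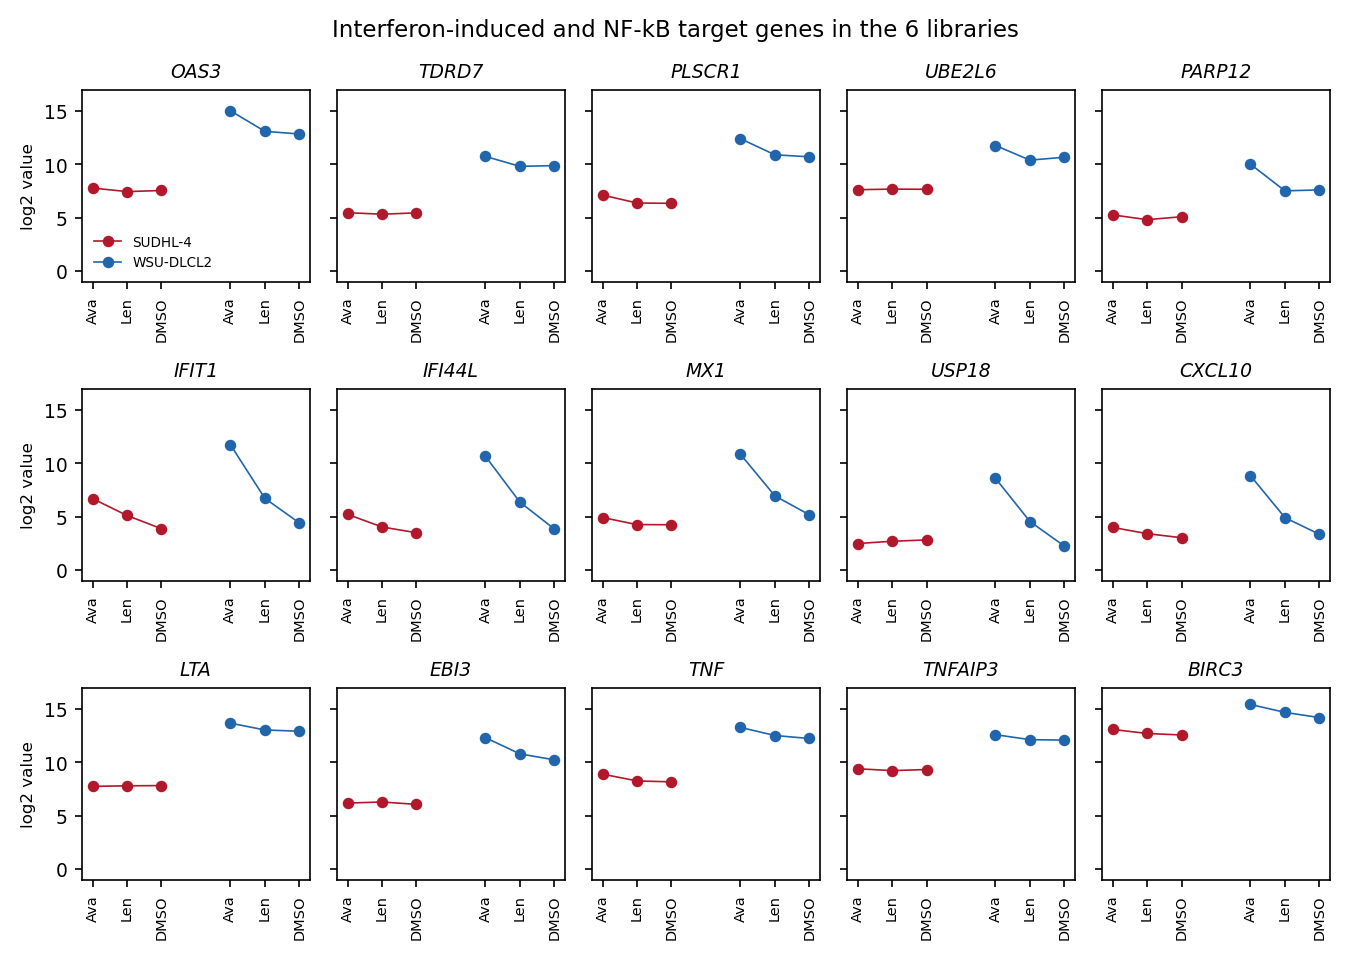
Log2 values of 15 interferon-induced and NF-kB target genes in the 6 libraries, SUDHL-4 in red on the left and WSU-DLCL2 in blue on the right of each panel. Genes of the top row differ under DMSO already, those of the middle row differ mainly under avadomide, and the NF-kB targets of the bottom row differ under all 3 treatments.

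NF-kB genes were lower in SUDHL-4 in 11 of 30 cases and higher in none, beside 12% and 9.55% over all genes, with a median of -0.709. Without the WSU-DLCL2 avadomide library 1 was higher. NF-kB is the transcription factor family that B-cell receptors and CD40 switch on, and its inhibitors are among its own targets. LTA, which encodes lymphotoxin alpha (chromosome 6, 31572054 to 31574324), was at 7.73, 7.79 and 7.81 in SUDHL-4, against 13.66, 13.02 and 12.90 in WSU-DLCL2, a difference of -5.42 ± 0.14 (adjusted p = 9.59e-10). TNF, its neighbour in the MHC region (chromosome 6, 31575567 to 31578336), was at 8.88, 8.24 and 8.16 in SUDHL-4, against 13.26, 12.50 and 12.22 in WSU-DLCL2, and LTB, the third gene there, was lower at -1.73. EBI3, a subunit of interleukins 27 and 35, was at 6.17, 6.27 and 6.05 in SUDHL-4, against 12.30, 10.78 and 10.22 in WSU-DLCL2. Of the feedback inhibitors TNFAIP3, which encodes A20, was at 9.38, 9.21 and 9.31 in SUDHL-4, against 12.58, 12.11 and 12.07 in WSU-DLCL2, and NFKBIA and NFKBIZ were lower at -1.51 and -1.79. BIRC3, an inhibitor of apoptosis, was lower at -1.98 ± 0.12 (adjusted p = 3.08e-07). Among the subunits only NFKB2 was called, at -1.76 ± 0.20 (adjusted p = 3.73e-05), while REL and NFKB1 were not, at 0.14 and -0.49. In the DMSO libraries alone the list median was -0.469.

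Of 25 receptors for interleukins and TNF ligands 10 were lower and 3 higher, beside 12% and 9.55% over all genes. Their median was -0.785, beside -0.00303 over all genes. IL2RA, the alpha chain of the interleukin 2 receptor, was at 4.43, 4.70 and 4.84 in SUDHL-4, against 9.02, 8.20 and 8.0 in WSU-DLCL2. TNFRSF14, the lymphoma suppressor HVEM, was at 7.75, 7.57 and 7.35 in SUDHL-4, against 11.62, 10.74 and 10.06 in WSU-DLCL2. IL9R was lower at -4.36 ± 0.14 (adjusted p = 4.53e-09), though it has near-identical copies. IL7R, TNFRSF21 and IL10RA were higher, the last of these by 2.04 ± 0.14 (adjusted p = 7.61e-07). Of 17 chemokines and their receptors 6 were lower and 1 higher, against the same 12% and 9.55%. CCL5, a chemoattractant of T cells, was at 1.99, 2.91 and 2.50 in SUDHL-4, against 7.86, 6.68 and 6.69 in WSU-DLCL2, and CXCL11, an interferon-induced attractant of T cells, at 2.21, 1.58 and 1.47 in SUDHL-4, against 6.70, 4.64 and 4.77 in WSU-DLCL2. CXCR5, the receptor that draws B cells to follicles, was higher by 2.53 ± 0.19 (adjusted p = 1.51e-06). Without both avadomide libraries 4 of the 17 were lower and 3 higher, CXCL10 and ACKR3 being lost, and without the WSU-DLCL2 avadomide library 4 were lower and 4 higher.

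Of 17 ligands of T and NK cell receptors, 5 were lower in SUDHL-4 and none higher, beside 12% and 9.55% over all genes. CD58, the ligand of CD2 (chromosome 1, 116514535 to 116571039), was at 5.41, 5.15 and 5.26 in SUDHL-4, against 10.62, 9.57 and 9.13 in WSU-DLCL2, a difference of -4.50 ± 0.22 (adjusted p = 8.49e-08). CD274, which encodes PD-L1, was at 4.11, 4.28 and 4.44 in SUDHL-4, against 8.28, 6.29 and 5.75 in WSU-DLCL2, and its difference of -2.50 ± 0.42 (adjusted p = 0.000545) was -1.67 without both avadomide libraries. CD80 was lower at -2.44 ± 0.13 (adjusted p = 1.22e-07). Of 18 genes of MHC class I presentation, 4 were lower and none higher, with a median of -0.411, and 1 was higher without either or both avadomide libraries. HLA-F was at 5.23, 5.32 and 5.41 in SUDHL-4, against 10.50, 9.54 and 9.42 in WSU-DLCL2. HLA-B was lower at -1.18 ± 0.14 (adjusted p = 4.87e-05), a call that was lost without either avadomide library. MHC class II genes had 3 of 17 higher and none lower, namely HLA-DQB1 (1.71), HLA-DRB5 (1.42) and HLA-DOB (1.05), which was not called without the SUDHL-4 lenalidomide library. HLA genes are polymorphic and share sequence, so their differences between donors are uncertain. Their regulator CIITA was at -0.48, not called.

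Adhesion genes were called in 10 of 29 cases, 7 lower and 3 higher, beside 12% and 9.55% over all genes. ITGB2, the beta-2 integrin chain, was at 9.46, 9.69 and 9.79 in SUDHL-4, against 14.04, 13.83 and 13.85 in WSU-DLCL2, and ITGB1, the beta-1 chain, at 14.25, 14.05 and 14.04 in SUDHL-4, against 12.42, 12.01 and 11.97 in WSU-DLCL2. The main lymphoid partner of the beta-2 chain, ITGAL, was at -0.39 and not called. PECAM1, listed among endothelial markers, was at 9.31, 8.74 and 8.57 in SUDHL-4, against 6.71, 4.70 and 3.87 in WSU-DLCL2.

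**Figure D4:**
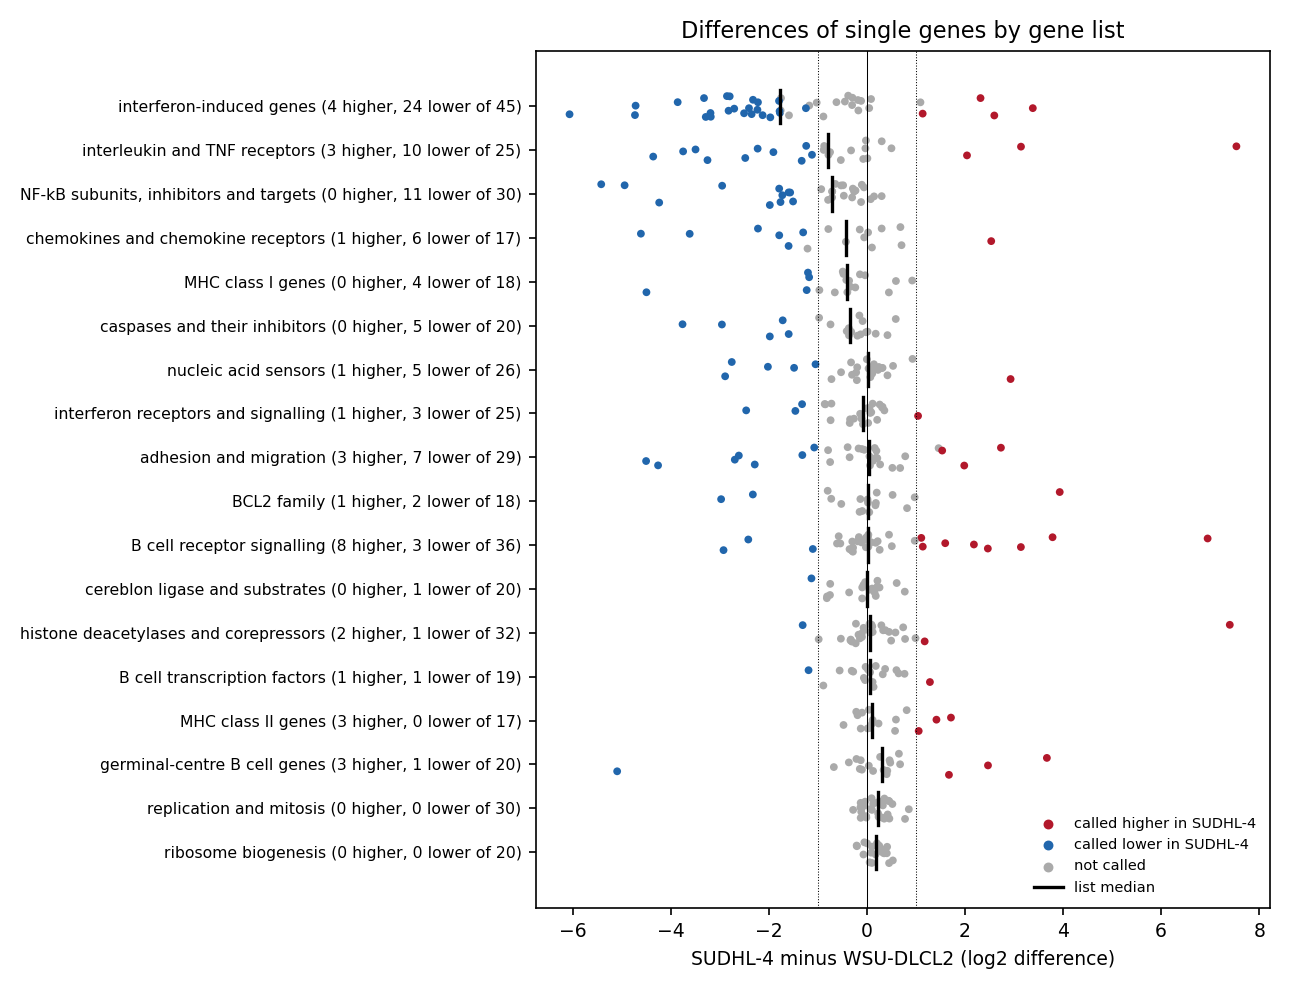
Differences between the lines (SUDHL-4 minus WSU-DLCL2, log2) of the tested genes of 18 lists, 1 point a gene, with a black bar at each list's median and dotted lines at the minimum size for a call. Interferon-induced genes have the lowest of the medians drawn, and replication and ribosome genes lie within 1 of 0.

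Of 18 genes of the BCL2 family 1 was higher and 2 lower in SUDHL-4, where all genes gave 9.55% and 12%. A further member was higher without both avadomide libraries, both lenalidomide libraries or the WSU-DLCL2 lenalidomide library. BCL2 itself was at 14.55, 14.32 and 14.45 in SUDHL-4, against 14.62, 14.54 and 14.56 in WSU-DLCL2. The pro-apoptotic HRK was at 8.18, 8.19 and 8.32 in SUDHL-4, against 4.50, 4.23 and 4.17 in WSU-DLCL2, and the pro-survival BCL2L2 and BCL2A1 were lower at -2.97 and -2.33 ± 0.44 (adjusted p = 0.00113). Of 20 caspases, death receptors and inhibitors 5 were lower and none higher. The death receptor gene FAS was at 6.25, 6.20 and 6.26 in SUDHL-4, against 10.61, 9.90 and 9.50 in WSU-DLCL2. Among 22 p53 genes 4 were higher and 1 lower. GADD45A was higher by 2.21 ± 0.059 (adjusted p = 1.06e-09) and CDKN1A, the cell-cycle inhibitor p21, by 1.65 ± 0.29 (adjusted p = 0.000769).

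Growth genes were close between the lines. None of 30 replication and mitosis genes, 20 ribosome biogenesis genes or 13 mitochondrially encoded genes was called, beside 21.6% over all genes. With no minimum size, at an adjusted p under 0.05, 15 replication genes were higher and 1 was lower. In that way 11 ribosome genes were higher and 2 lower, and 5 mitochondrial genes were higher and 6 lower. Of all 21338 genes tested, 6300 were higher and 6669 lower by that measure. MYC was at 14.81, 14.93 and 14.96 in SUDHL-4, against 14.22, 14.58 and 14.73 in WSU-DLCL2, a difference of 0.39 ± 0.061 (adjusted p = 0.000348), which is under the minimum size. Of the cell-cycle regulators CDKN1B, the inhibitor p27, was lower at -1.70 ± 0.051 (adjusted p = 2.64e-09), and RB1 was higher by 1.22 ± 0.048 (adjusted p = 1.61e-08). CCND1 was lower at -3.38 from low values, and CCND2 higher by 2.25.

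Genes of histone deacetylases and corepressors were called in 3 of 32 cases, against 21.6% over all genes. The study's title names inhibitors of histone deacetylases beside the drugs. Of the 32, 2 were higher and 1 was lower. A second gene was lower without both DMSO or both avadomide libraries, the SUDHL-4 DMSO or the WSU-DLCL2 avadomide library. The higher count was 3 under quantile normalization, median centring, or without both DMSO or both lenalidomide libraries. It was 3 also without the SUDHL-4 lenalidomide, the WSU-DLCL2 DMSO or the WSU-DLCL2 lenalidomide library. Of these genes, CTBP2 is given above, and the deacetylase genes HDAC2 and HDAC3 were not among them, at -0.23 and 0.052. HDAC5 was higher by 1.18 ± 0.12 (adjusted p = 1.46e-05) and HDAC11 lower at -1.31 ± 0.13 (adjusted p = 1.37e-05). Of 22 chromatin genes mutated in lymphoma, 2 were higher and 1 was lower, beside 9.55% and 12% over all genes. DNMT3B, a methyltransferase of unmethylated DNA, was at 9.63, 9.57 and 9.81 in SUDHL-4, against 6.70, 6.69 and 6.59 in WSU-DLCL2. TET2, which oxidises methylated DNA, was lower at -1.38 ± 0.080 (adjusted p = 2.85e-07). EZH2 was at 0.43, under the minimum size.

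The response to each drug was read within each line, from 1 library a treatment and so with no test. Under avadomide 353 genes (1.65%) were higher by at least 1 than under DMSO in SUDHL-4, and 1216 (5.7%) in WSU-DLCL2. Under lenalidomide the counts were 120 (0.562%) in SUDHL-4 and 295 (1.38%) in WSU-DLCL2. Interferon-induced genes higher by at least 1 under avadomide numbered 10 of 45 in SUDHL-4 and 41 of 45 in WSU-DLCL2. Their median change was 0.416 in SUDHL-4 and 3.01 in WSU-DLCL2. Under lenalidomide the medians were 0.0333 in SUDHL-4 and 0.295 in WSU-DLCL2. Of the 30 NF-kB genes 1 was higher by at least 1 under avadomide in SUDHL-4 and 8 in WSU-DLCL2. Over 12227 genes at a level to compare responses, the change in SUDHL-4 was below that in WSU-DLCL2 by at least 1 in 363 and above it in 48.

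USP18, which encodes a protease that removes ISG15 and damps interferon receptors (chromosome 22, 18149899 to 18177397), had the widest gap. It was at 2.47, 2.68 and 2.81 in SUDHL-4, against 8.59, 4.53 and 2.23 in WSU-DLCL2. The values were alike under DMSO, and the WSU-DLCL2 value under avadomide stood above the other 5. Its line difference of -2.46 ± 0.91 (adjusted p = 0.0392) was -0.64 without both avadomide libraries and no longer called, and calls were also lost when either avadomide library, or one or both lenalidomide libraries, were left out. It was -3.98 without both DMSO libraries. ACHE, acetylcholinesterase, was at 0.34, 0.36 and 0.54 in SUDHL-4, against 7.96, 5.80 and 3.40 in WSU-DLCL2, a difference of -5.30 ± 0.79 (adjusted p = 0.000232). NFASC, an adhesion protein of neurons, was at 1.0, 2.12 and 1.33 in SUDHL-4, against 5.81, 2.04 and 0.98 in WSU-DLCL2 and was not called (adjusted p = 0.154). IGDCC4, a surface protein of the immunoglobulin superfamily, was at 3.87, 4.05 and 3.83 in SUDHL-4, against 7.18, 3.58 and 2.40 in WSU-DLCL2 and was not called. In both the WSU-DLCL2 value under avadomide was the high one. TNFAIP2 was at 5.71, 5.25 and 5.39 in SUDHL-4, against 10.37, 6.58 and 5.40 in WSU-DLCL2, and its call was lost without either or both avadomide libraries and without the SUDHL-4 lenalidomide library. CXCL10, an attractant of T cells, was at 3.98, 3.39 and 3.01 in SUDHL-4, against 8.83, 4.89 and 3.33 in WSU-DLCL2, with its call lost without both avadomide libraries or the SUDHL-4 one alone. OASL, a relative of the OAS genes, was at 1.32, 1.53 and 1.32 in SUDHL-4, against 7.38, 4.06 and 2.32 in WSU-DLCL2, and its difference of -3.19 was -1.76 without both avadomide libraries. IFI44L, MX1 and IFIT1, given above, complete the 10 genes with the widest gaps.

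**Figure D5:**
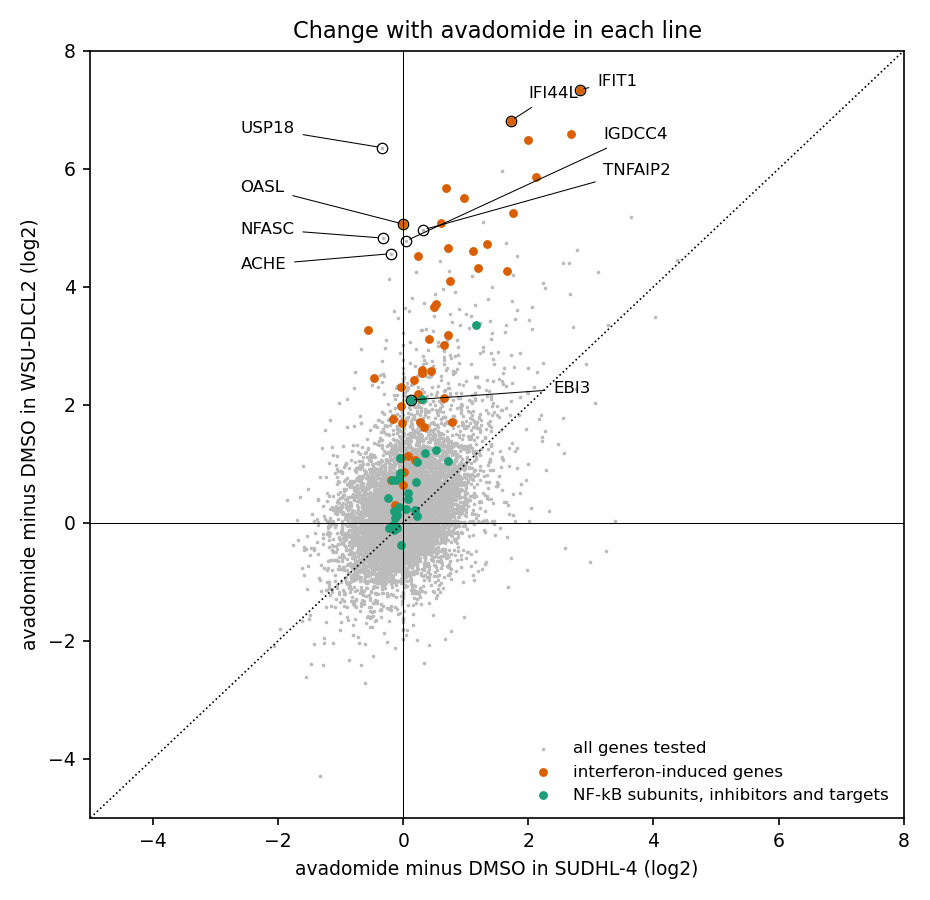
Change under avadomide (avadomide minus DMSO, log2) in SUDHL-4 on the horizontal axis and in WSU-DLCL2 on the vertical axis, 1 point for each of the 21338 genes tested. Interferon-induced genes are orange and NF-kB genes green, and the dotted line marks equal change. Nearly all orange points lie above the line, with 41 of 45 at 1 or more in WSU-DLCL2 and 10 of 45 in SUDHL-4.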

How the data were processed

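RNA was sequenced from 12 libraries of 4 lymphoma lines, 1 for each line and treatment, and no replicate within a line and treatment is labelled. The authors deposited 1 table of genes by libraries on a log2 scale, from -2.407 to 20.14, with 17112 of 58684 genes at 0 in all 12. Per the submitters' processing notes, STAR, Salmon and build hg38 were used, with versions not given. No source used here gives the normalization, the transform or the use of strand, so depth and counting error are unknown, and differences of low genes may be shrunken. No counts were recovered from the values.

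A gene was tested when 3 or more of the 6 libraries of both lines had it at 1 or higher (21338 genes), leaving out 28 symbols turned into dates. All 12 libraries were fitted in limma 3.58.1 (R 4.3.3) with line and treatment as factors and an intensity trend, 6 residual degrees of freedom and 9.53 with the prior. The test was two-sided. A single gene tested by permutation of 3 against 3 libraries could not go below 0.1. Treatment pairs the libraries by design, and deviations of paired libraries correlated across genes at 0.444 for avadomide, 0.132 for lenalidomide and 0.378 for DMSO.

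The members and gene lists were chosen with earlier results of these data known, some genes stand in several lists, and single genes were named as the members of largest difference or defining role of a list, the 15 largest called differences in each direction, the 10 highest on and off genes and the 10 widest gaps in the avadomide response. Gene positions are from GENCODE v29 on GRCh38. Promoters came from RefSeq. Some list members are not reported here by name. The fit was checked on simulated data. Alternatives changed the libraries, scaling, filter, variance prior and minimum difference.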

Additional observations from a re-analysis of the deposited data

Results flagged for a closer look

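In 4 genes of the 10 with the widest gap between the responses, the change under avadomide against DMSO had opposite signs in the lines. USP18 changed by -0.34 in SUDHL-4 and by 6.36 in WSU-DLCL2, a gap of -6.70. NFASC changed by -0.33 in SUDHL-4 and by 4.83 in WSU-DLCL2, a gap of -5.16. OASL changed by -0.00011 in SUDHL-4 and by 5.06 in WSU-DLCL2, a gap of -5.06. ACHE changed by -0.20 in SUDHL-4 and by 4.56 in WSU-DLCL2, a gap of -4.76. The changes in SUDHL-4 are small, and for OASL near 0, so that the sign there says little. With 1 library for each line and treatment none of these gaps was tested. The genes were picked as the widest of 12227, and both changes of a line share its DMSO library with the lenalidomide change.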

How the results depend on the processing

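The count of genes called was 2605 (1127 higher and 1478 lower in SUDHL-4) when a log2 value of 5 was required, since fewer genes were tested, and 2818 (1215 higher and 1603 lower) when limma tested against a difference of 1. With no minimum difference it was 12969 (6300 higher and 6669 lower). Without the treatment block it was 4484 (1993 higher and 2491 lower), all of them among the 4605. Leaving out 1 library or both libraries of a treatment gave 4517 to 4660 genes, with 1968 to 2121 higher and 2466 to 2680 lower. Other fits gave 4535 to 5041. The higher share of the called genes was 44.3%, and it was 49.7% after quantile normalization and 53.5% after median centring. Genes on in 1 line and off in the other numbered 83, against 13 at thresholds of 6 and 0 and 299 at 4 and 2. The alternative pseudocount was not run, because the deposited values are on a log2 scale already. Of 162 named genes, 135 were called. Over 19 alternatives 2920 of their values kept their direction and side of the threshold, 106 lost the call, 22 gained one and 9 changed sign. The 9 were in genes that were not called. Under median centring BCL2 was at 0.040, BCL6 at 0.049, IKZF1 at 0.077 and MS4A1 at 0.046. Over the fits that leave out 1 library or both libraries of a treatment, IKZF1 ran from -0.23 to 0.0086, NFASC from -2.36 to 0.21 and IGDCC4 from -1.42 to 0.95, each positive only without avadomide libraries. Of the called genes 31 lost the call when limma tested against a difference of 1. Without the treatment block 13 lost it, and 7 to 12 without 1 or both avadomide libraries. ACKR3 lost it in most fits that left out a library. With no counts, the error that sequencing depth adds to low genes cannot be given.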

Other observations

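HOX genes, which mark body position and are often re-used in blood cells, differed in both directions inside one cluster. Of 18 tested, 2 were higher and 4 lower in SUDHL-4, beside 9.55% and 12% over all genes. In the HOXA cluster on chromosome 7, HOXA7 was at 9.58, 9.68 and 9.65 in SUDHL-4, against 5.42, 5.15 and 5.20 in WSU-DLCL2, and HOXA10 at 3.68, 3.69 and 3.68 in SUDHL-4, against 9.78, 9.93 and 9.86 in WSU-DLCL2, so that genes of the same cluster were called in opposite directions. Whether counting used strand is not stated, and antisense transcripts of these clusters cannot be told apart from the genes. In the HOXC cluster on chromosome 12, HOXC4 was higher by 5.65 ± 0.12 (adjusted p = 2.51e-10) and HOXC11 lower at -3.47 ± 0.23 (adjusted p = 7.78e-07). Of 23 glycolysis genes 3 were lower and none higher, beside 12% and 9.55% over all genes, and 1 was lower without the SUDHL-4 avadomide library or under median centring. Among them was the glucose transporter SLC2A3, at 5.62, 5.68 and 5.53 in SUDHL-4, against 8.49, 8.22 and 8.10 in WSU-DLCL2.

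Zinc finger genes named ZNF were counted after the values had been seen, so the counts are a description without a test. Of 468 tested, 18 were higher (3.85%) and 82 lower in SUDHL-4 (17.5%), beside 8.85% higher and 11.7% lower among all protein-coding genes. On chromosome 19, where many of these genes lie in clusters, 6 of 228 were higher and 47 lower (20.6%), while of 811 other protein-coding genes there 80 were higher and 74 lower. Elsewhere 12 of 240 were higher and 35 lower. Of the 50 genes off in SUDHL-4 and on in WSU-DLCL2, 9 were ZNF genes, and of the 33 in the other direction 0 were, at the same thresholds. ZNF genes were 468 of the 21338 genes tested, so few would be found among 33 genes and the 0 says little. Medians of the difference over the protein-coding genes of a chromosome ran from -0.135 on chromosome 8 to 0.347 on chromosome 13, with 0.276 on chromosome 18, 0.249 on chromosome 12 and 0.246 on chromosome 7.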
